A study of Mus musculus with 8 samples.

Results

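The genes described here are the Wnt ligands, their receptors, the secreted antagonists and the intracellular effectors of the pathway. They were chosen by gene symbol alone: every probe set of the platform annotation with a single symbol was taken if that symbol named a Wnt ligand, Porcn, a Frizzled, Lrp5 or Lrp6, Ror1 or Ror2, an Sfrp or Dkk family member, Frzb, Wif1, a Dishevelled, an axin, Apc, Ctnnb1, Lef1 or a gene of the Tcf7 family. This gave 53 genes with 83 probe sets, of 12393 genes with 20380 probe sets of a single symbol. No measured value entered the choice. The study measured RNA in the ventral lobe of the prostate on 4 Affymetrix arrays of mice transgenic for the polyoma virus middle T antigen, here called MT, and on 4 arrays of wild-type mice, to compare prostate cancer caused by the transgene with normal prostate. Mice of both groups were FVB males aged 8 weeks. The labels do not name the promoter that drives the transgene, nor do they say whether each array stands for a separate animal, so p-values measure only how far these samples differ among themselves, which may be technical variation.

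Wnt ligands are lipid-modified secreted proteins that bind Frizzled receptors together with the co-receptors LRP5 or LRP6. In the canonical branch this binding recruits Dishevelled and inhibits the complex of axin and APC that marks beta-catenin for destruction. Beta-catenin can then enter the nucleus and act with TCF/LEF factors on target genes. Secreted antagonists bind the ligands (SFRP proteins, WIF1) or the LRP co-receptors (DKK proteins), while ROR receptors and Dishevelled also serve branches that do not need beta-catenin. In the prostate, Wnt signals pass between the stroma and the epithelium and are known for their part in budding, in androgen-dependent growth and in tumours.

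Levels below are RMA values on the log2 scale. Differences are MT minus wild type and carry the standard error of the limma fit. A gene passed the test at an adjusted p under 0.05, over all 12393 genes. Of the 53 Wnt pathway genes, 5 were higher in MT, 12 were lower and 36 did not pass. This was 32.1% of the pathway genes (9.43% as higher and 22.6% as lower), beside 41.1% of all genes tested (19.7% as higher and 21.3% as lower). The share called in this family was no larger than that of the array as a whole, and its median change was -0.09, beside -0.01 over all genes. The 5 genes higher in MT were Dvl1, Fzd4, Ctnnb1, Wnt7b and Apc. The 12 lower in MT were Wif1, Sfrp2, Axin2, Fzd2, Porcn, Fzd6, Tcf7l1, Wnt5b, Fzd8, Wnt10b, Fzd3 and Sfrp5. Changes were small: only Wif1 differed by 2-fold or more, 1.89% of the pathway genes. Of all genes of the array 630 (5.08%) passed the test at that size. All MT arrays were above or all were below every wild-type array for 5 of the genes that were higher and 10 that were lower, or 15 of 53, against 40.0% of all genes. Wild-type array 4 and MT array 2 had stood apart from their groups in earlier results of these data, and when they were left out 4 pathway genes were higher (7.55%) and 7 lower (13.2%), beside 16.5% and 17.2% of all genes in the same fit.

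**Figure D1:**
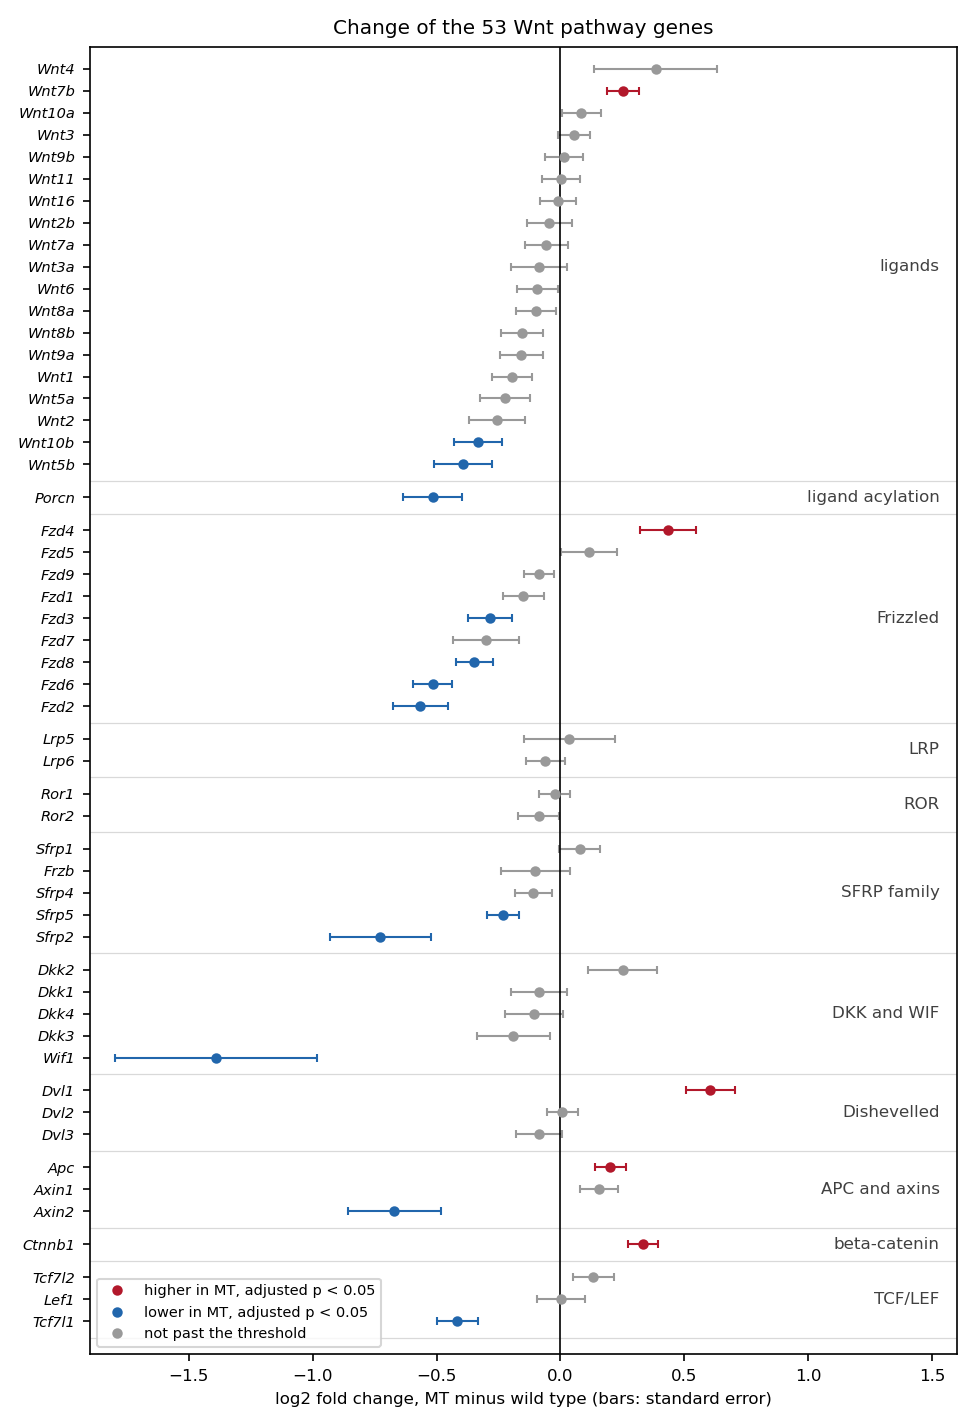
Log2 fold change (MT minus wild type, horizontal axis) of the 53 Wnt pathway genes, grouped by role, with bars for the standard error of the limma fit (n = 4 arrays per group). Red points passed the test as higher in MT, blue points as lower and grey points did not pass. Most points lie within 0.5 of 0, Wif1 is far to the left of the others, and blue points occur among the ligands, Frizzled receptors, antagonists, axins and TCF/LEF factors.

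Many of the Wnt genes gave little signal. The deposited table holds no detection calls, so each value was set against probe sets for Bacillus transcripts on the same array, which should have no target in mouse RNA. Above the highest of all 27 such controls (5.55 to 5.86 over the arrays) on all 8 arrays lay 19 of the 53 pathway genes, beside 58.1% of all genes, and 26 lay above it on no array. A single control, AFFX-PheX-3_at, set that level. Without it the level was 3.99 to 4.55, and 38 pathway genes lay above it on all 8 arrays. Against the 12 redesigned Bacillus controls alone (3.52 to 3.90) 46 did, and only Wnt3 lay above them on no array. Of the 19 genes above every control, 5 passed as higher and 7 as lower, a share of 63.2%, beside 52.6% of all genes at that level. Of the other 34, 5 passed, all as lower in MT: Wif1, Fzd2, Sfrp5, Wnt5b and Wnt10b, a share of 14.7% beside 25.1%. By direction this was 0% higher and 14.7% lower, beside 12.1% and 12.9% of the other genes of the array. The split used the arrays of both groups, so a fall in MT can itself place a gene here. Wif1, Fzd2 and Sfrp5 lay above the highest control on 4 wild-type arrays each, but on only 2, 3 and 3 MT arrays.

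Levels of marker genes of several cell types differed between the groups. All 11 smooth muscle markers were lower in MT, with a mean level of the list from 7.93 to 8.72 on MT arrays and from 8.93 to 9.59 on wild-type arrays. Myl9, a myosin light chain, and Actg2, an enteric-type smooth muscle actin, had the largest changes (-1.24 ± 0.23 and -1.23 ± 0.29). Of 14 fibroblast and matrix markers 11 were lower, led by the matrix proteins Dpt (-2.11 ± 0.17) and Ogn (-1.83 ± 0.17), with list means of 6.95 to 7.37 in MT and 7.75 to 8.39 in wild type. All 10 luminal epithelial markers were higher, among them the claudin Cldn4 and the surface protein Cd24a, with list means of 11.71 to 11.83 in MT and 10.86 to 11.02 in wild type. Of 7 basal epithelial markers 3 were lower and 1 higher, Krt15 falling by 1.35 and Itgb4 rising by 1.13. No marker of these 4 lists lay at or below the redesigned controls on all arrays, and the prostate secretory genes Pbsn and Spink1, which mark the labelled tissue, stood at 9.12 ± 0.68 and 10.77 ± 0.18 in MT and at 13.28 ± 0.38 and 13.81 ± 0.06 in wild type (SD, n = 4). Of the 8 prostate secretory genes 3 were higher in MT and 5 lower. All 9 proliferation genes were higher, led by Mki67 (2.43 ± 0.15), as were 7 of 12 macrophage markers, led by Ctss (2.40 ± 0.18), and 3 of 6 T cell markers, led by Cd3g, while 1 macrophage marker and 1 T cell marker were lower. Of 10 endothelial markers only Tek and of 8 nerve markers only Uchl1 and Gfap passed, all lower. Over all genes 19.7% were higher and 21.3% lower. The share called as lower was below that of all genes in the endothelial list and close to it in the nerve list. In the smooth muscle and fibroblast lists the share called as lower was far above it. The shares called as higher in the luminal and proliferation lists were likewise far above that of all genes. In such bulk samples fewer cells of a type and less RNA per cell cannot be told apart. The part of these shifts in the changes of the Wnt genes was not tested.

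Among the 19 ligands, 1 was higher (5.26%) and 2 were lower (10.5%) in MT, and 16 did not pass. Over all genes 19.7% were higher and 21.3% lower. Wnt7b, a ligand made by epithelia, had values of 8.02, 7.92, 8.09 and 8.02 on the MT arrays, against 7.76, 7.82, 7.67 and 7.80 on the wild-type arrays. Every MT array was above every wild-type array, though the gap was small. The change was 0.25 ± 0.06 (adjusted p = 0.0083). It was seen with only 1 of the 2 probe sets of the gene. The other probe set gave 5.95 ± 0.14 in MT and 6.01 ± 0.03 in wild type (-0.06 ± 0.08, adjusted p = 0.599), and with the probe sets averaged Wnt7b no longer passed (0.10, adjusted p = 0.220).

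Wnt5b, a ligand known mostly for beta-catenin-independent signals, was lower in MT by 0.39 on the log2 scale. Its values were 5.38, 5.12, 5.12 and 5.26 on the MT arrays, against 5.97, 5.45, 5.56 and 5.45 on the wild-type arrays (adjusted p = 0.0181). The groups did not overlap, and wild-type array 1 was the highest. Wnt10b, a canonical ligand, averaged 5.21 ± 0.11 in MT and 5.55 ± 0.19 in wild type (SD, n = 4; change -0.33 ± 0.10, adjusted p = 0.0166). For both genes the signal lay at or below the highest Bacillus control on 4 of 4 MT arrays and on 3 of 4 wild-type arrays, so that the differences are between weak signals. Both calls also rested on single arrays: without MT array 2, Wnt5b and Wnt10b had adjusted p-values of 0.0532 and 0.0538, and without MT array 3 Wnt5b had 0.0542.

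Of the ligands that did not pass, Wnt4, a ligand with roles in the development of the mammary gland and the urogenital tract, had the largest difference. It stood at 8.24, 7.76, 8.04 and 8.01 on the MT arrays, against 8.01, 6.80, 7.48 and 8.20 on the wild-type arrays. The groups overlapped because wild-type arrays 1 and 4 were as high as the MT arrays, and the change of 0.38 ± 0.25 did not pass (adjusted p = 0.25). Wnt2 (-0.26), Wnt5a (-0.22), Wnt1 (-0.19), Wnt9a (-0.16) and Wnt8b (-0.16) were the next in size. Without wild-type array 2, 3 of them would pass as lower in MT, Wnt5a (adjusted p = 0.00784), Wnt1 (adjusted p = 0.0297) and Wnt2 (adjusted p = 0.0340). With arrays paired by number Wnt2 passed too (adjusted p = 0.0371). The other 10, Wnt2b, Wnt3, Wnt3a, Wnt6, Wnt7a, Wnt8a, Wnt9b, Wnt10a, Wnt11 and Wnt16, had changes between -0.10 and 0.08. None of the 15 uncalled ligands other than Wnt4 exceeded the highest Bacillus control on any array.

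Porcn, the acyltransferase that attaches the lipid every Wnt ligand needs for secretion, was lower in MT. It measured 6.69, 6.17, 6.24 and 6.54 on the MT arrays, against 6.97, 7.0, 6.71 and 7.03 on the wild-type arrays. The groups came close but did not overlap, MT array 1 and wild-type array 3 being the nearest. The change was -0.52 ± 0.12 (adjusted p = 0.00456), a 1.43-fold difference.

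Frizzled receptors moved in both directions, with 1 of 9 higher (11.1%), 4 lower (44.4%) and 4 not passing. Over all genes 19.7% were higher and 21.3% lower. Fzd6, which acts in planar cell polarity, measured 9.10, 9.03, 9.0 and 9.06 on the MT arrays, against 9.47, 9.44, 9.58 and 9.76 on the wild-type arrays. The MT arrays lay within 0.10 of each other and all below wild type. The change was -0.51 ± 0.08 (adjusted p = 0.000305), and the second probe set of Fzd6 gave -0.53 ± 0.13 (adjusted p = 0.00587).

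Fzd2, a receptor for ligands of both the canonical and the beta-catenin-independent branch, had 5.90, 5.71, 5.76 and 5.94 on the MT arrays, against 6.73, 6.22, 6.22 and 6.40 on the wild-type arrays. No MT array reached the lowest wild-type array, and 3 of 4 MT arrays were above the highest Bacillus control. Its change was -0.57 ± 0.11 (adjusted p = 0.00184), and its other 2 probe sets fell as well, by 0.58 and 0.36 on the log2 scale. In the one that fell by 0.36 the groups overlapped. Fzd8 averaged 6.61 ± 0.08 in MT and 6.96 ± 0.12 in wild type (SD, n = 4; adjusted p = 0.00315), with no overlap. Fzd3, a receptor known from axon guidance, was lower by 0.29 (adjusted p = 0.0244), but its groups overlapped and its other 3 probe sets lay between -0.03 and 0.14 without passing. The Fzd3 call was lost without MT array 2 (adjusted p = 0.0721), MT array 3 (0.0524), or wild-type array 1 (0.050024), 2 (0.0551) or 4 (0.0623).

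Fzd4, the receptor for norrin as well as for Wnt ligands, was the Frizzled that rose. It had 7.34, 7.25, 7.19 and 7.12 on the MT arrays, against 6.66, 6.5, 6.98 and 7.03 on the wild-type arrays. All MT arrays were above all wild-type arrays, and the change was 0.43 ± 0.11 (adjusted p = 0.0101). Its second probe set gave 3.45 ± 0.17 in MT and 3.45 ± 0.12 in wild type (SD, n = 4), a range that the redesigned Bacillus controls also covered, and with the probe sets averaged Fzd4 no longer passed (0.22, adjusted p = 0.0685). The Frizzled genes that did not pass were Fzd1 (-0.15), Fzd5 (0.11), Fzd7 (-0.30) and Fzd9 (-0.08). Of these, Fzd1, Fzd5 and Fzd9 exceeded the highest Bacillus control on no array. Fzd7 passed as lower with arrays paired by number (adjusted p = 0.0373), without MT array 4 (0.0483) and without wild-type array 2 (0.00906), and Fzd1 without wild-type array 1 (0.0482).

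The co-receptors and ROR receptors gave no call. Lrp6, a co-receptor that carries the canonical signal, had 8.44, 8.40, 8.22 and 8.53 on the MT arrays, against 8.48, 8.40, 8.39 and 8.57 on the wild-type arrays. The groups overlapped throughout, with a change of -0.06 ± 0.08 (adjusted p = 0.577). Ror1, a receptor tyrosine kinase for WNT5A, had 5.0, 4.94, 5.05 and 5.08 on the MT arrays, against 4.97, 5.08, 5.11 and 5.0 on the wild-type arrays. This also was full overlap (-0.02 ± 0.06, adjusted p = 0.802), at a level below the highest Bacillus control on every array. Lrp5 (0.04 ± 0.18) and Ror2 (-0.09 ± 0.08) did not pass either, and the wild-type values of Lrp5 spread over 1.07. Ror2 exceeded the highest Bacillus control on no array, and Lrp5 on 1 wild-type array only.

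**Figure D2:**
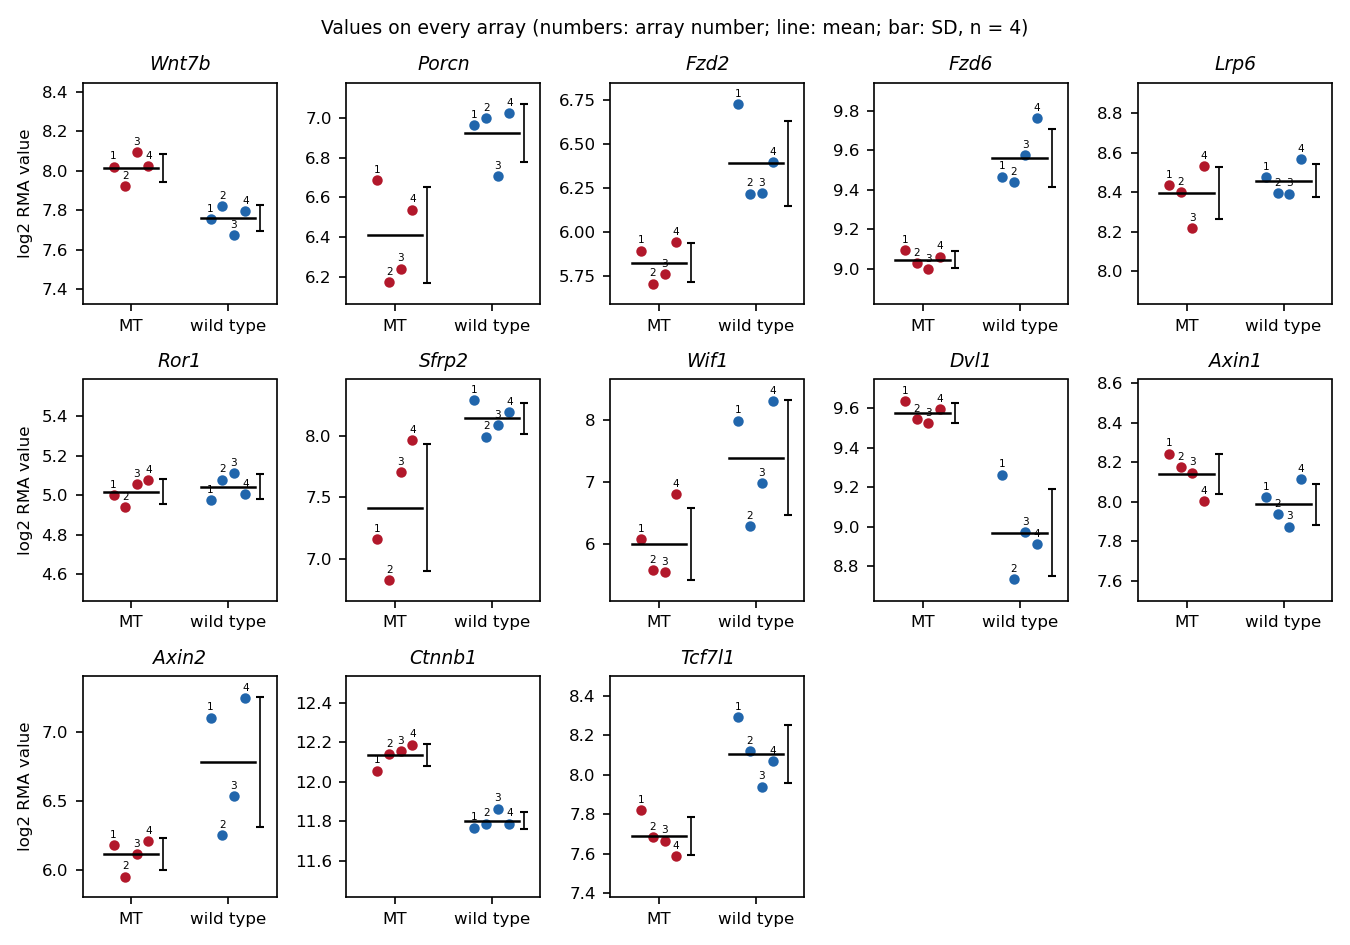
Log2 RMA value (vertical axis, a scale of its own in each panel) on every array for 13 Wnt pathway genes, MT in red on the left and wild type in blue on the right. Points are arrays with their number, lines are group means and bars are the SD of 4 arrays. Fzd6, Dvl1 and Ctnnb1 show tight and separate MT values, Wif1 and Axin2 spread widely among the wild-type arrays, and Lrp6 and Ror1 overlap.

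Of the 10 secreted antagonists 3 were lower in MT (30%), none was higher at an adjusted p under 0.05 in limma, and 7 did not pass. Over all genes 21.3% were lower and 19.7% higher. At an unadjusted p under 0.05 the same number of antagonists, 3, passed. Wif1, a secreted protein that binds Wnt ligands directly, had the largest change of the family. It measured 6.08, 5.58, 5.55 and 6.80 on the MT arrays, against 7.99, 6.29, 6.98 and 8.30 on the wild-type arrays. MT array 4 was above wild-type array 2, so the groups overlapped, and wild-type arrays 1 and 4 stood well above the other 2. The change was -1.39 ± 0.41 (adjusted p = 0.0176), or 2.62-fold. The call was lost without MT array 2 (adjusted p = 0.0527), MT array 3 (0.0549) or wild-type array 1 (0.0517), and with trended, robust moderation (0.0738). It was also lost with both MT array 2 and wild-type array 4 left out (-0.94, adjusted p = 0.109). The log2 fold change was -0.94 or lower in every setting that tested the gene. The 250 bases before the start of Wif1 are shown because it changed most. They lie at chr10:121033754-121034003, plus strand, GRCm38.p6, and come from RefSeq. They hold no CTTTGAA or CTTTGAT, the forms of the TCF/LEF core that were searched for on both strands.
Wif1 upstream: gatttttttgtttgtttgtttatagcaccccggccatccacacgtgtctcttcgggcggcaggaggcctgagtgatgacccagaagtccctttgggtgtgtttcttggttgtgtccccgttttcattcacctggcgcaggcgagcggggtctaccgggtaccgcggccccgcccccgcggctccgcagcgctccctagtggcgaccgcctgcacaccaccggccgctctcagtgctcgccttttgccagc

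Sfrp2, a secreted Frizzled-related protein made by stromal cells, had 7.16, 6.82, 7.70 and 7.96 on the MT arrays, against 8.29, 7.99, 8.09 and 8.19 on the wild-type arrays. The groups did not overlap, but MT arrays 3 and 4 came close to wild type and MT arrays 1 and 2 did not. The change was -0.73 ± 0.20 (adjusted p = 0.0139). Among the MT arrays Sfrp2 was lowest on array 2, then 1, 3 and 4. The smooth muscle list (8.23, 7.93, 8.54 and 8.72 on MT arrays 1 to 4) and the endothelial list (5.37, 5.32, 5.39 and 5.42) had this order too. The fibroblast list (6.95, 7.04, 7.29 and 7.37) was also highest on MT arrays 3 and 4. So were the luminal (11.71, 11.72, 11.77 and 11.83), basal (6.70, 6.71, 6.72 and 6.80) and nerve lists, so this was not particular to stromal lists. The macrophage, T cell, proliferation and prostate secretory lists had other orders. These orders were not planned for comparison and were not tested. Sfrp5 averaged 5.72 ± 0.06 in MT and 5.95 ± 0.07 in wild type (SD, n = 4), with no overlap (-0.23 ± 0.06, adjusted p = 0.0132).

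Sfrp1, of the same family, gave different answers from its 4 probe sets. The probe set with the highest mean, which stands for the gene, was of the type whose probes may match other transcripts. It had 6.74, 6.72, 6.60 and 6.68 on the MT arrays, against 6.5, 6.45, 6.79 and 6.68 on the wild-type arrays (0.08 ± 0.08, adjusted p = 0.497). The other 3 all fell. One had 5.75, 5.63, 5.80 and 5.99 on the MT arrays, against 6.57, 6.03, 6.41 and 6.72 on the wild-type arrays (-0.64 ± 0.14, adjusted p = 0.00329 over all probe sets). Another had 5.85, 5.85, 5.96 and 5.92 on the MT arrays, against 6.39, 6.23, 6.47 and 6.52 on the wild-type arrays (-0.50 ± 0.08, adjusted p = 0.000341). In both, every MT array was below every wild-type array, and the last, a weak probe set, changed by -0.55 ± 0.09 (adjusted p = 0.000835) at a level near the redesigned controls in MT. The changes of these 3 differed from that of the standing probe set by -0.58, -0.71 and -0.62, each at the smallest p that an exact two-sided permutation test of 4 against 4 arrays allows (0.0286), or 0.0952 adjusted over 30 such comparisons, a test chosen after the values were seen. Sfrp1 is therefore counted as not passing, though 3 of 4 probe sets were lower in MT.

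The remaining antagonists did not pass. Frzb (-0.10) and Sfrp4 (-0.11) belong to the Frizzled-related family, and Frzb exceeded the highest Bacillus control on no array. Dkk1 (-0.09), Dkk2 (0.25) and Dkk4 (-0.11) block the LRP co-receptors, and their values lay below the highest Bacillus control on every array. Dkk3, a family member that does not act through LRP in the same way, changed by -0.19 ± 0.15 (adjusted p = 0.344). Its other, weaker probe set was lower (3.66 ± 0.16 in MT and 4.11 ± 0.23 in wild type, SD, n = 4; adjusted p = 0.0112), and Dkk3 passed as lower with the probe sets averaged (adjusted p = 0.0385) or without wild-type array 2 (0.0351).

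Of the 3 Dishevelled genes, which relay the signal from Frizzled receptors, Dvl1 alone passed. It measured 9.63, 9.54, 9.52 and 9.59 on the MT arrays, against 9.26, 8.73, 8.97 and 8.91 on the wild-type arrays. All MT arrays were higher, and wild-type array 1 came nearest. The change was 0.60 ± 0.10 (adjusted p = 0.000537), the largest rise of the family, and the second probe set gave 0.46 ± 0.09 (adjusted p = 0.00152). Dvl2 (0.01 ± 0.06) and Dvl3 (-0.09 ± 0.09) did not pass, and Dvl3 exceeded the highest Bacillus control on no array.

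The scaffolds of the destruction complex moved in opposite directions. Axin2, a scaffold that is also induced by beta-catenin as negative feedback, had 6.18, 5.95, 6.11 and 6.21 on the MT arrays, against 7.10, 6.25, 6.53 and 7.25 on the wild-type arrays. The MT arrays were close together and just below the lowest wild-type array, while wild-type arrays 1 and 4 were far above arrays 2 and 3. The change was -0.67 ± 0.19 (adjusted p = 0.0136). A second probe set near the level of the redesigned controls gave -0.09 ± 0.07 (adjusted p = 0.297), and the change was -0.46 (adjusted p = 0.0795) when wild-type array 4 and MT array 2 were left out. The upstream 250 bases of Axin2 are shown because it is the pathway's usual target gene. They lie at chr11:108920099-108920348, plus strand, GRCm38.p6 (RefSeq), and this window holds neither form of the TCF/LEF core searched for.
Axin2 upstream: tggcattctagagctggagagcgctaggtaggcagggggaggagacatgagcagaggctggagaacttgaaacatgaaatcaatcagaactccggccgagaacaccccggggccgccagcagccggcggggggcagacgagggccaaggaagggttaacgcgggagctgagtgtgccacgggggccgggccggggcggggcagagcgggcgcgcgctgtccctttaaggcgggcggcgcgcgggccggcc

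Axin1, the constitutive scaffold, had 8.24, 8.17, 8.15 and 8.00 on the MT arrays, against 8.02, 7.94, 7.87 and 8.11 on the wild-type arrays. The groups overlapped through MT array 4 and wild-type array 4, and the change of 0.15 ± 0.08 did not pass (adjusted p = 0.133). Apc, which binds beta-catenin in the complex, averaged 8.02 ± 0.04 in MT and 7.81 ± 0.07 in wild type (SD, n = 4; 0.20 ± 0.06, adjusted p = 0.0218). Its other 2 probe sets, at 0.16 and 0.02, did not pass. The Apc call was lost without MT array 1 (adjusted p = 0.061), MT array 2 (0.0578), wild-type array 1 (0.0557) or wild-type array 4 (0.0552).

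Ctnnb1, which encodes beta-catenin, was higher in MT. It had 12.06, 12.14, 12.16 and 12.19 on the MT arrays, against 11.77, 11.79, 11.87 and 11.79 on the wild-type arrays. The groups were separate and tight (0.33 ± 0.06, adjusted p = 0.001), a 1.26-fold difference. Its other 2 probe sets also passed over all probe sets, at 0.53 ± 0.14 (adjusted p = 0.0136) and 0.30 ± 0.11 (adjusted p = 0.0454). In both of them the groups overlapped. Beta-catenin also links cadherins to the actin cytoskeleton, and of 8 measured cadherin and catenin partners 3 were higher and none passed as lower. Alpha-catenin, Ctnna1, averaged 10.94 ± 0.05 in MT and 10.33 ± 0.12 in wild type (SD, n = 4). E-cadherin, Cdh1, averaged 10.69 ± 0.05 in MT and 10.09 ± 0.13 in wild type. The cadherin stabiliser Ctnnd1 averaged 8.93 ± 0.07 in MT and 8.47 ± 0.20 in wild type, and each of the 3 passed with no overlap. Cdh1 is also on the luminal epithelial list, all of which rose.

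Tcf7l1, a TCF factor that acts mainly as a repressor, was lower in MT. It had 7.82, 7.68, 7.67 and 7.59 on the MT arrays, against 8.29, 8.12, 7.94 and 8.07 on the wild-type arrays. No MT array reached the lowest wild-type array (-0.42 ± 0.08, adjusted p = 0.00216). Its second probe set fell further, by 0.64 on the log2 scale (6.88 ± 0.09 in MT and 7.51 ± 0.11 in wild type, adjusted p = 6.61e-05). Tcf7l2 (0.13 ± 0.08) and Lef1 (0.00 ± 0.10), the other DNA-binding partners of beta-catenin measured, did not pass, and Lef1 was near the redesigned controls.

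How far the probe sets of a gene told the same story varied. Of the 21 pathway genes with several probe sets, 51 in all, 5 had every probe set past the threshold in the same direction: Ctnnb1, Dvl1, Fzd2, Fzd6 and Tcf7l1. In 8 genes (Apc, Axin2, Dkk3, Fzd3, Fzd4, Sfrp1, Wnt5b and Wnt7b) some passed and some did not, in 8 none passed, and no gene had probe sets passing in opposite directions. Over all 83 probe sets, 8 were higher (9.64%) and 20 lower (24.1%) in MT, beside 18.1% and 19.7% of all 22626 probe sets tested. When the probe sets of each gene were averaged, 2 pathway genes were higher (3.77%) and 13 lower (24.5%), beside 19.4% and 21.9% of all genes. Sfrp1 was then among the lower genes (-0.40, adjusted p = 0.00201).

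**Figure D3:**
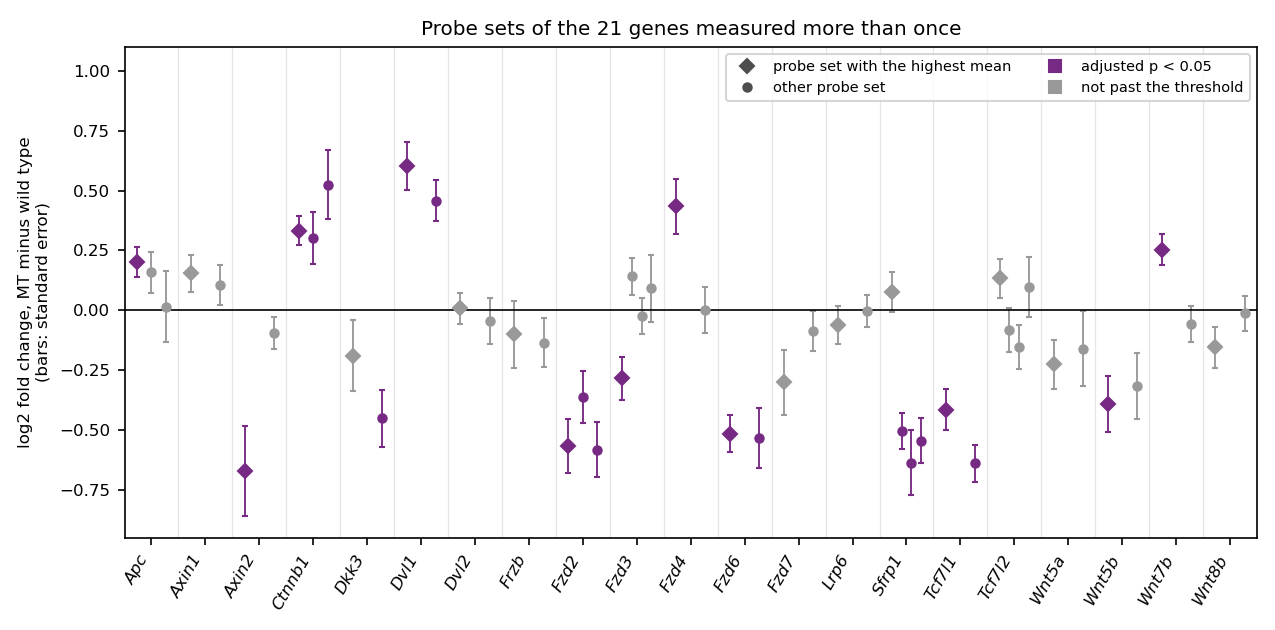
Log2 fold change (MT minus wild type, vertical axis) of every probe set of the 21 Wnt pathway genes that have more than 1, with bars for the standard error (n = 4 arrays per group). Diamonds mark the probe set with the highest mean, circles the others, and purple marks an adjusted p under 0.05 over all probe sets. The Ctnnb1, Dvl1, Fzd2, Fzd6 and Tcf7l1 probe sets move together, while the diamond of Sfrp1 lies above its 3 circles.

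Wild-type arrays differed among themselves at some of these genes. Wif1, Wnt4 and Axin2 had the largest wild-type SDs of the family (0.93, 0.63 and 0.47), beside a median of 0.15 over the 53 genes and 0.12 over all genes. In all 3 the wild-type arrays fell in the same order, array 4 highest, then 1, 3 and 2. Sp5, a transcription factor induced by beta-catenin and named here after its values were seen, had 7.78, 7.92, 7.76 and 7.93 on the MT arrays, against 7.75, 6.57, 6.96 and 7.61 on the wild-type arrays. Here too wild-type arrays 1 and 4 were high and arrays 2 and 3 low. Mmp7, a matrix protease on the target list, had 9.44, 9.38, 9.16 and 9.25 on the MT arrays, against 8.28, 7.08, 7.41 and 8.56 on the wild-type arrays. The smooth muscle list, at 9.59, 8.93, 9.23 and 9.47 on wild-type arrays 1 to 4, was highest on arrays 1 and 4 as well, and Pbsn, at 13.70, 12.83, 13.12 and 13.45, likewise. Other values did not share this order: Spink1 was highest on wild-type array 3 and lowest on array 4, the fibroblast list was higher on array 3 (8.26) than on array 1 (8.16), and Lrp5 (array 3 lowest, array 4 highest) and Dkk3 (arrays 3 and 4 highest) had wild-type orders of their own. The examples were picked after their values were seen, and the part of this difference in the results was not tested. Every Axin2 MT value (5.95 to 6.21) lay below the lowest wild-type value (6.25). The Wif1 MT values lay below the lowest wild-type value (6.29), except on MT array 4 (6.80). Every Sp5 MT value was above the highest wild-type value (7.75), though narrowly. The Wnt4 MT values (7.76 to 8.24) lay in the upper part of the wild-type range (6.80 to 8.20) or just above it.

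**Figure D4:**
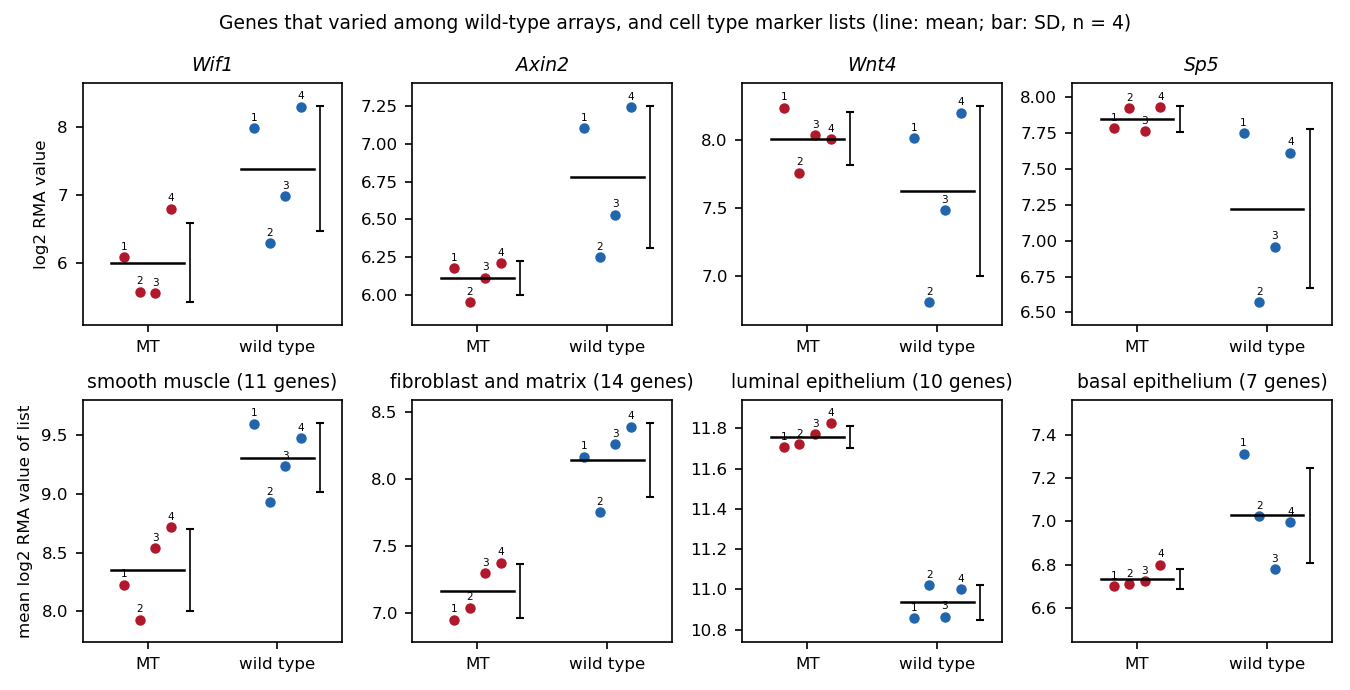
Top row, log2 RMA value on every array of Wif1, Axin2, Wnt4 and Sp5; bottom row, mean log2 RMA value of 4 lists of cell type markers (MT in red on the left, wild type in blue on the right; lines are means, bars SD of 4 arrays). Wild-type arrays 1 and 4 stand above arrays 2 and 3 in all 4 genes and in the smooth muscle list, and MT arrays lie wholly below wild type for the smooth muscle and fibroblast lists and wholly above it for the luminal list.

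The same pathway was followed through genes outside the family, in lists drawn up by role. Of 9 genes of Wnt secretion and extracellular partners, 2 were lower and none passed as higher: Reck, a membrane co-activator of WNT7 signalling (5.27 ± 0.22 in MT and 6.26 ± 0.34 in wild type, -0.99 ± 0.16, adjusted p = 0.000444), and the glypican Gpc6 (-0.31 ± 0.09). Reck lay below the highest Bacillus control on every MT array. Of 5 R-spondin system genes 1 rose and 1 fell. Rnf43, a ubiquitin ligase that removes Frizzled receptors from the membrane, had 7.07, 7.17, 7.21 and 7.63 on the MT arrays, against 6.13, 6.10, 6.27 and 6.39 on the wild-type arrays (1.05 ± 0.12, adjusted p = 3.33e-05). The R-spondin receptor Lgr5 had 7.36, 7.08, 7.94 and 8.03 on the MT arrays, against 8.41, 8.21, 8.17 and 8.24 on the wild-type arrays (-0.66 ± 0.18, adjusted p = 0.0133). For each of these the groups did not overlap, except for Gpc6, and Lgr5 shared its order among the MT arrays with Sfrp2.

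Of 11 other receptors and extracellular antagonists 1 was higher and 4 lower. The rise was in Tpbg, a membrane glycoprotein that inhibits canonical signalling (0.64 ± 0.08, adjusted p = 8.79e-05). Lower were Igfbp4, a binding protein that also blocks LRP6 (-0.94 ± 0.20), the antagonist Apcdd1 (-0.54 ± 0.11), the polarity co-receptor Ptk7 (-0.38 ± 0.08) and Ryk, a Wnt-binding receptor (-0.18, adjusted p = 0.0277). Ptk7 lay below the highest Bacillus control on every array, and Apcdd1 on every MT array. The Ryk call was lost without any 1 of the MT arrays (adjusted p from 0.0508 to 0.0678), without wild-type array 1 (0.0706) or 2 (0.0518), with both MT array 2 and wild-type array 4 left out (0.0780) and with arrays paired by number (0.0525). Of 17 regulators of the destruction complex and the cytoplasm 5 were higher and 3 lower. Casein kinases phosphorylate pathway components, and of the 5 casein kinase genes on the list 3 rose: Csnk1d averaged 10.29 ± 0.04 in MT and 9.45 ± 0.06 in wild type (0.84 ± 0.06, adjusted p = 1.16e-06), Csnk1g1 changed by 0.59 ± 0.10 and Csnk1e by 0.48 ± 0.11. The other 2 did not pass, Csnk1a1 at 0.17 (adjusted p = 0.131) and Csnk2a1 at -0.07 (adjusted p = 0.522). The largest fall was in Dact1, a Dishevelled-binding inhibitor, with 6.75 ± 0.13 in MT and 7.82 ± 0.20 in wild type (-1.06 ± 0.10, adjusted p = 1.04e-05).

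Of 19 nuclear partners of beta-catenin 5 were higher and 1 was lower, with a median of 0.15. Ctbp2, a co-repressor (0.49 ± 0.06), Bcl9, a co-activator that binds beta-catenin (0.47 ± 0.08), and the acetyltransferase Crebbp (0.39 ± 0.10) were higher, and the Groucho-type co-repressor Tle2 was lower (-0.55 ± 0.12). The count of 5 fell to 3 without any of MT arrays 1, 2 and 3 or wild-type array 4. Of 13 planar cell polarity genes 4 were higher and 2 lower. Celsr1 (0.51 ± 0.10), the GTPase Rac1 (0.41 ± 0.09) and Vangl1 (0.40 ± 0.06) rose, and Celsr2, a cadherin related to Celsr1, fell by 0.42. Only 1 of the 2 fell without MT array 2, MT array 4 or wild-type array 3. Celsr1 was a weak signal, below the highest Bacillus control on every array and below the redesigned controls on wild-type arrays 2 and 4. Median changes of these lists ran from -0.14 for the other receptors and antagonists to 0.16 for the adhesion partners, beside -0.01 over all genes. Shares called as higher and as lower were 0% and 22.2% for secretion and extracellular partners, and 20% and 20% for the R-spondin system. They were 9.09% and 36.4% for the other receptors and antagonists, and 29.4% and 17.6% for destruction complex regulators. For nuclear partners they were 26.3% and 5.26%, for planar cell polarity 30.8% and 15.4%, and for adhesion partners 37.5% and 0%. Over all genes they were 19.7% and 21.3%.

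Genes known as beta-catenin targets in one tissue or another did not move as a block. Of 33 measured, 9 were higher in MT (27.3%), 7 were lower (21.2%) and 17 did not pass, with a median of -0.02. Over all genes 19.7% were higher and 21.3% lower. The rises included Birc5, an inhibitor of apoptosis that is also on the proliferation list (6.90 ± 0.21 in MT and 4.65 ± 0.29 in wild type, 2.25 ± 0.14), the surface receptor Cd44 (8.78 ± 0.11 in MT and 6.59 ± 0.21 in wild type, 2.19 ± 0.10, adjusted p = 6e-08), Mmp7 (1.48 ± 0.27) and Rnf43. Sp5 rose by 0.63 (adjusted p = 0.0361), a call that did not hold without any 1 of the MT arrays (adjusted p from 0.0601 to 0.0822) or without wild-type array 2 (0.0635) or 3 (0.101). Some targets often used as read-outs of the pathway were divided: Axin2 and Lgr5 were lower, by 0.67 and 0.66, Sp5 and Rnf43 were higher, and Lef1 did not pass. This choice was not planned, and the split describes only these genes. The lowest change on the whole list was -0.90. Without wild-type array 4 and MT array 2, 9 of the 33 targets were higher and only 3 lower, beside 16.5% and 17.2% of all genes in that fit.

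**Figure D5:**
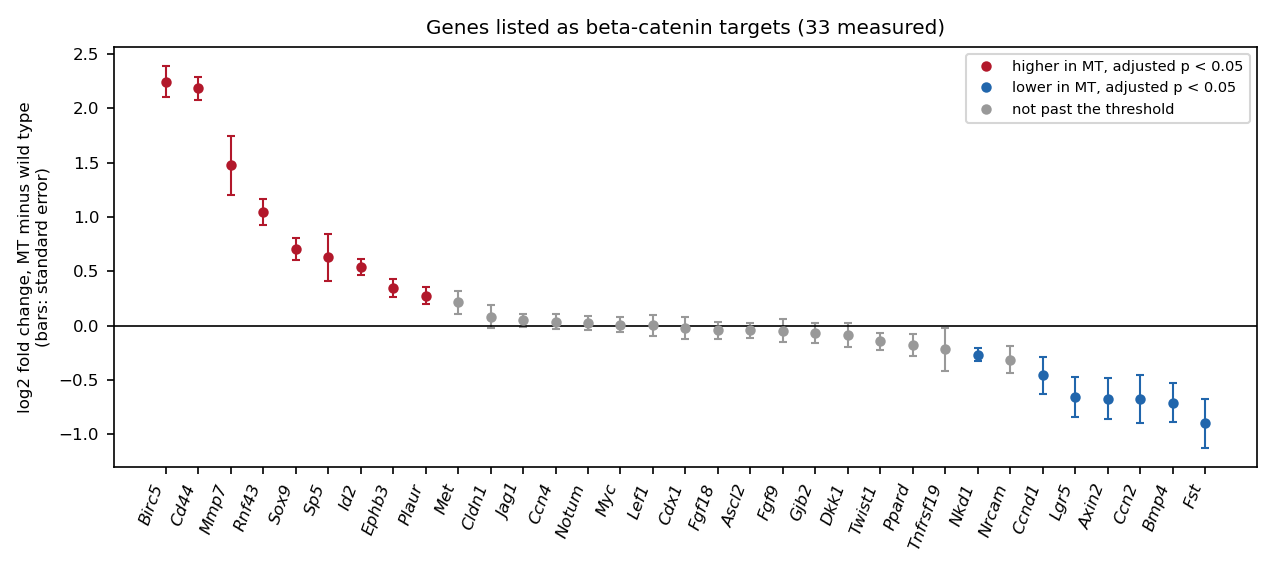
Log2 fold change (MT minus wild type, vertical axis) of 33 genes listed as beta-catenin targets, sorted by size, with bars for the standard error (n = 4 arrays per group). Red points passed the test as higher in MT, blue as lower, and grey did not pass. The 9 red points run up to Birc5 and Cd44, above 2, and the 7 blue points run down to about -0.9.

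Promoter windows were examined for the forms CTTTGAA and CTTTGAT of the TCF/LEF core, as a description. Other forms of the core were not searched for, so the shares below are not of all TCF/LEF matches. RefSeq (GRCm38.p6) gave the 250 bases before the start for 36 of the 53 pathway genes, 44 windows in all. CTTTGAA or CTTTGAT, on either strand, stood in 3 of the 44 windows (6.82%), beside 7.48% of 32851 windows of the genome. The 44 windows had a median GC content of 67.4%, beside 52.4% for all. The 3 genes were Dkk1, Wnt11 and Wnt5b, of which only Wnt5b passed the test. Its window at chr6:119449387-119449636, minus strand, is shown for that reason, with the core in capitals, 71 bases before the start. It is 1 of 3 listed starts of the gene.
Wnt5b upstream: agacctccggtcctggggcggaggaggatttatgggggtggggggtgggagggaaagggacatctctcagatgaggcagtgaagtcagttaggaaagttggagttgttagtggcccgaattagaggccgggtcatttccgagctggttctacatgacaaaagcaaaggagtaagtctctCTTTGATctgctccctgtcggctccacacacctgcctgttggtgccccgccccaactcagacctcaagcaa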

How the data were processed

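Ventral prostate RNA was measured on 4 MT and 4 wild-type Affymetrix arrays. The authors deposited log2 values made with RMA, per the submitters' processing notes (no version of it is given in the sources used here). Array medians were 6.21 to 6.23, and the number of arrays limits the precision. All 22690 probe sets were used as deposited, less 64 controls. A gene was represented by its probe set with the highest mean among those with a single symbol in the platform annotation. MT and wild type were compared with limma 3.58.1 (R 4.3.3; lmFit, eBayes, two-sided, Benjamini-Hochberg, threshold 0.05) over 12393 genes and, in a second fit, over all probe sets. Tables were made with pandas 2.3.3 and figures with matplotlib 3.10.9 under Python 3.11.15. The fit was tested on simulated data.

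The members and lists were chosen with earlier results of these data known. Values on every array were planned for members past the threshold that changed by at least 0.5 and for the member with the highest mean of each role, and up to 4 called genes of each other list were named, 2 for markers. Array values of Wnt4, Fzd4, Sfrp1, Rnf43, Lgr5, Mmp7, Sp5 and Pbsn, the second probe sets, Ryk, Csnk1a1, Csnk2a1 and the wild-type orders of Lrp5 and Dkk3 were added after their values were seen. The level of all 27 Bacillus controls was planned. The redesigned controls and the level without AFFX-PheX-3_at were added after seeing the data.

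In each group the sample titles run from 1 to 4. Deviations from group means of same-numbered arrays correlated at 0.10 to 0.18 over genes, each over 0.1, so the numbers were treated as pairs in an alternative fit. No label states a shared litter or day.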

Additional observations from a re-analysis of the deposited data

Results flagged for a closer look

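Single arrays lay far from the other 3 of their group in 14 of 254 groups of 4 values examined (the gap to the nearest array, as a share of the whole range, exceeded Dixon's critical value). About 1 group in 20 does so by chance, or 12.7 of 254, so these flags are about as many as chance gives. Among Wnt pathway genes, MT array 4 was the lowest for Wnt2b (4.22, the others 4.51 to 4.54) and for Wnt8a (3.42, the others 3.66 to 3.69), and MT array 3 was the lowest for Dkk1 (3.82, the others 4.03 to 4.05). None of these 3 genes passed the test.

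Second probe sets were flagged in 5 genes. MT array 4 was low for an Apc probe set (3.96, the others 4.34 to 4.35) and high for a Frzb probe set (3.68, the others 3.28 to 3.34). Wild-type array 3 was high for an Fzd3 probe set (4.39, the others 3.72 to 3.8). MT array 1 was low for an Lrp6 probe set (6.79, the others 6.91 to 6.94). Wild-type array 1 was high for a Tcf7l2 probe set (7.30, the others 6.90 to 6.93).

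Of the listed genes, Csnk1g1 was high on MT array 4 (7.91, the others 7.53 to 7.56) and Tle2 on wild-type array 1 (6.33, the others 5.81 to 5.89). Ctbp2 was high on MT array 3 (8.84, the others 8.77). Ctnna1 was low on MT array 1 (10.87, the others 10.96 to 10.97), Ctnnd1 on wild-type array 3 (8.18, the others 8.53 to 8.59) and Cd4 on MT array 1 (5.59, the others 5.68 to 5.69).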

How the results depend on the processing

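Of the 17 pathway genes past the threshold, 7 (Ctnnb1, Dvl1, Fzd2, Fzd6, Fzd8, Porcn and Tcf7l1) stayed past it in every setting tried that tested them, apart from the stricter thresholds. With the probe sets averaged, 2 pathway genes were higher (3.77%) and 13 lower (24.5%), beside 19.4% and 21.9% of all genes. A filter at the median level tested only 17 pathway genes and ended no call of a gene it tested. Of the 17, 5 were higher (29.4%) and 7 lower (41.2%), beside 29.2% and 31% of all genes in that fit. Leaving out wild-type array 4 together with MT array 2 left 4 higher (7.55%) and 7 lower (13.2%), beside 16.5% and 17.2% of all genes. Among others it ended the calls of Wif1 (adjusted p = 0.109), Sfrp2 (0.0556) and Sfrp5 (0.0729). At an adjusted p under 0.01, 3 were higher (5.66%) and 5 lower (9.43%), beside 14.5% and 15.1% of all genes. Against a minimum change of 0.5 (limma treat) 0 were higher and 0 lower of the pathway genes (1 at an unadjusted p under 0.05), beside 483 (3.9%) and 394 (3.18%) of all genes. Leaving out single arrays gave 4 to 5 higher (7.55% to 9.43%) and 8 to 16 lower (15.1% to 30.2%). Over all genes these shares were 17.6% to 19.4% and 18.6% to 20.7%. With arrays paired by number (replicate block) 5 were higher (9.43%) and 14 lower (26.4%), beside 20.1% and 22% of all genes. Apart from Fzd7 and Wnt2 the block changed no call of a pathway gene. Sfrp1 reversed sign, to -0.40 with probe sets averaged and to -0.50 with probe sets of the unique type, since its other probe sets then entered its value. Without a call in either setting, a change of sign occurred 28 times among pathway genes. On all 8 arrays 52 pathway genes lay above the median Bacillus control, 46 above the redesigned controls and 38 above all controls but AFFX-PheX-3_at. Of 46 listed genes named, Cd4, Gfap, Gpc6, Ryk and Sp5 lost their call in at least 1 setting other than stricter thresholds.

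RNA quality, read as the 3 prime minus the 5 prime value of control probe sets, differed by -0.19 for Gapdh and -0.18 for Actb (exact two-sided permutation p = 0.0857 and 0.114, smallest possible 0.0286). Signal near the Bacillus controls limits what can be said of most ligands, of the DKK genes and of Ror1, Ror2 and Lef1. The same holds for Fzd1, Fzd5, Fzd9, Dvl3, Frzb and Lrp5.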

Other observations

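The 7 pathway genes whose calls held in every setting but the stricter thresholds came from different steps of the pathway: ligand acylation (Porcn), receptors (Fzd2, Fzd6 and Fzd8), signal relay (Dvl1), the transducer itself (Ctnnb1) and a TCF factor (Tcf7l1). Their changes under these settings ran from -0.62 to -0.45 for Fzd2, from -0.56 to -0.44 for Fzd6, from -0.41 to -0.31 for Fzd8, from -0.61 to -0.40 for Porcn, from -0.53 to -0.35 for Tcf7l1, from 0.32 to 0.39 for Ctnnb1 and from 0.46 to 0.70 for Dvl1. Wif1, with the largest change of the family, had the widest range, from -1.76 to -0.94, and 99.9% of all genes had a wild-type SD no larger than its own.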
